A study of Mus musculus with 6 samples.

Results

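The genes described here are 9 outputs of the circadian clock in mouse liver: the transcription factor genes Dbp, Tef, Hlf, Nfil3, Bhlhe40, Bhlhe41 and Rora, the ubiquitin protease gene Usp2 and the cell cycle kinase gene Wee1. The members were chosen by gene symbol from the platform annotation, which gave 17 of 22626 probe sets and 9 of 12393 genes. The list was drawn up with the differences between the groups already known, so these differences are given as a description without a test. Liver RNA came from male C57BL/6J mice that drank source water for 90 d, set against male C57BL/6J mice that drank distilled water for 90 d as the control. Each group had 10 mice, and the livers of 9 were homogenised in lots of 3, so that each of the 3 arrays per group carried the RNA of 3 mice. The mice were kept under a daily light and dark cycle. The sources used here give no hour of collection, no ages and no composition of the water. For genes that cycle over the day, any difference between the groups in the hour of collection cannot be told apart from the water.

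Values are log2 signals of probe sets, as deposited, and a difference of 1 is a 2-fold difference. Signals of different probe sets are not on a common scale, so each probe set is compared only with itself across pools. Array medians lay between 5.79 and 5.86, and hepatocyte markers such as albumin lay between 12.0 and 14.9 on every array, for 6 of 7 listed markers measured. In whole-liver RNA, fewer cells of a type and less RNA per cell cannot be told apart. With 3 arrays a group, the number of arrays limits precision.

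The clock of a liver cell is a feedback loop in which the activators CLOCK and BMAL1 bind E-boxes and switch on the Per and Cry genes, whose products then inhibit the activators. The same activators drive Dbp, Tef and Hlf, which encode the PAR bZIP factors. These factors activate genes that carry D-boxes, while NFIL3, a bZIP repressor, binds the same sites. BHLHE40 and BHLHE41, also known as DEC1 and DEC2, are E-box repressors, and RORA activates genes with ROR elements, which REV-ERB proteins repress. USP2 removes ubiquitin from clock proteins among others, and WEE1 is the kinase that holds back entry into mitosis.

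The windows around the members' start sites were searched for 4 motifs on both strands, because these elements are known to link clock genes. They were the E-box CACGTG, the D-box TTANGTAA, the ROR element TAGGTCA and the cyclic AMP element TGACGTCA. RefSeq windows of assembly GRCm38.p6, from 250 bases before to 50 bases after a start, were held for 7 of the 9 members, in 8 windows. The E-box lay in both Tef windows and in that of Bhlhe41, the ROR element in that of Nfil3 and the cyclic AMP element in that of Hlf. Of all 32851 windows, 7.15% held the E-box, 2.32% the D-box, 2.61% the ROR element and 1.79% the cyclic AMP element. None of the 4 motifs was in the windows of Dbp, Usp2 or Rora, which says only that these letters are not in those 300 bases. The stretches with a match are shown 5′ to 3′ on the strand of the gene, with the motif in capitals, and no match overlapped another. In Nfil3 the capitals are the ROR element read on the opposite strand. The Tef stretches are chr15:81802506-81802591 and chr15:81811236-81811321 on the plus strand, with the motif 127 and 138 bases before the start. On the minus strand, the stretch of Bhlhe41 is chr6:145865528-145865613, that of Nfil3 chr13:52981005-52981091 and that of Hlf chr11:90390879-90390966, with motifs 153, 12 and 9 bases before the start.
Tef, first start: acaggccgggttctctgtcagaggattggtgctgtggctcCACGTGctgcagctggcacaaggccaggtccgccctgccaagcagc
Tef, second start: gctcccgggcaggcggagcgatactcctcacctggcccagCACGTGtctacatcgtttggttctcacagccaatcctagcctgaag
Bhlhe41: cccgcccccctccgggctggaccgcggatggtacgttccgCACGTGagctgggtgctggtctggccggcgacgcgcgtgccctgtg
Nfil3: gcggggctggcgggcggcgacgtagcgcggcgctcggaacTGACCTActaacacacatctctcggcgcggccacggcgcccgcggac
Hlf: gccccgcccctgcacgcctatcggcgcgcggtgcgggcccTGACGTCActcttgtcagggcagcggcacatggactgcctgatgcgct

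The 3 PAR bZIP genes were all lower in source water than in control. Dbp had log2 signals of 10.31, 11.54 and 10.86 in source water pools 1 to 3, against 11.56, 11.60 and 11.67 in control pools 1 to 3, by its brightest probe set, which is of a type that can also match related transcripts. The groups did not overlap, but source water pool 2 lay only just under the lowest control pool, whereas the control pools were nearly alike. The log2 difference was -0.71 ± 0.27 (moderated SE, n = 3 per group), or 1.63-fold lower. It was -0.41 without source water pool 1 and -1.02 without source water pool 2. The other Dbp probe set gave 9.21, 10.35 and 9.59 in source water, against 10.30, 10.63 and 10.18 in control. Its difference was -0.65 ± 0.27 (SE), and here source water pool 2 lay within the control range. Both probe sets of this factor thus gave a similar size of difference and the same order of the source water pools.

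Tef, a close relative of Dbp, had log2 signals of 9.34, 9.89 and 9.66 in source water, against 10.16, 10.38 and 10.18 in control. All source water pools lay below the control pools, and the difference was -0.61 ± 0.16 (SE), or 1.53-fold lower. The other Tef probe sets had mean log2 signals of 4.52 and 4.94 in source water, against 4.68 and 5.0 in control, close to the floor of the arrays, and their groups overlapped. They differed by -0.15 and -0.05, so the Tef value rests on 1 of 3 probe sets.

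Hlf, the remaining PAR bZIP gene, had log2 signals of 7.23, 7.28 and 7.42 in source water, against 7.65, 7.93 and 7.75 in control. The groups were apart and the pools of each group were close together, which made the difference of -0.47 ± 0.12 (SE) the most even among the 3 genes. The second Hlf probe set had 5.59, 5.67 and 6.08 in source water, against 6.90, 5.81 and 6.38 in control. It differed by -0.59 ± 0.26 (SE), with overlapping groups, since control pool 2 was low.

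Nfil3, the repressor that competes for D-boxes, had log2 signals of 7.51, 7.61 and 7.92 in source water, against 7.80, 7.44 and 7.24 in control. The groups overlapped, and the difference of 0.19 ± 0.17 (SE) was close to its error. It ranged from 0.06 to 0.34 when single arrays were left out. With Bhlhe40, it was 1 of 2 members with a positive difference.

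Usp2 showed the largest difference of the 9 genes. Its brightest probe set had log2 signals of 7.35, 7.58 and 8.40 in source water, against 9.14, 9.62 and 8.94 in control. All source water pools were below all control pools, with source water pool 3 the nearest to them. The difference was -1.46 ± 0.28 (SE), or 2.75-fold lower, and ranked 8 from the lowest among the 22626 probe sets. The second Usp2 probe set, of a type designed to match alternative transcripts of 1 gene, had 7.06, 7.09 and 8.51 in source water, against 9.30, 9.67 and 8.88 in control. It differed by -1.73 ± 0.38 (SE), or 3.31-fold, at rank 4 from the lowest. In both probe sets pool 3 stood apart from the other source water pools, and without it the first differed by -1.77.

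Wee1 had log2 signals of 6.75, 7.38 and 7.21 in source water, against 8.33, 8.26 and 8.27 in control. The control pools lay within 0.07 of one another, and every source water pool was well below them. The difference was -1.17 ± 0.16 (SE), or 2.26-fold lower. The second Wee1 probe set, near the floor, had 4.73, 4.92 and 4.42 in source water, against 4.99, 5.13 and 4.93 in control. It differed by -0.33 ± 0.14 (SE), again with groups apart.

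The E-box repressors and Rora differed little. Bhlhe40 had log2 signals of 9.005, 9.13 and 9.21 in source water, against 8.98, 9.02 and 9.20 in control. The groups overlapped almost fully, with a difference of 0.05 ± 0.11 (SE). Bhlhe41 had 4.60, 4.65 and 4.28 in source water, against 4.69, 4.97 and 4.72 in control. Its groups were apart, by a difference of -0.28 ± 0.14 (SE), but the single probe set lay near the floor, which limits what it can show. The difference was -0.17 without source water pool 3 and -0.19 without control pool 2. Rora, the nuclear receptor, had 8.62, 8.65 and 9.03 in source water, against 9.13, 8.94 and 8.91 in control. The groups overlapped, as source water pool 3 lay at the level of the control pools, and the difference was -0.23 ± 0.14 (SE). It was -0.36 without that pool, and -0.16 without source water pool 1. A second Rora probe set differed by -0.28 ± 0.14 (SE) and the dim one by -0.01.

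**Figure D1:**
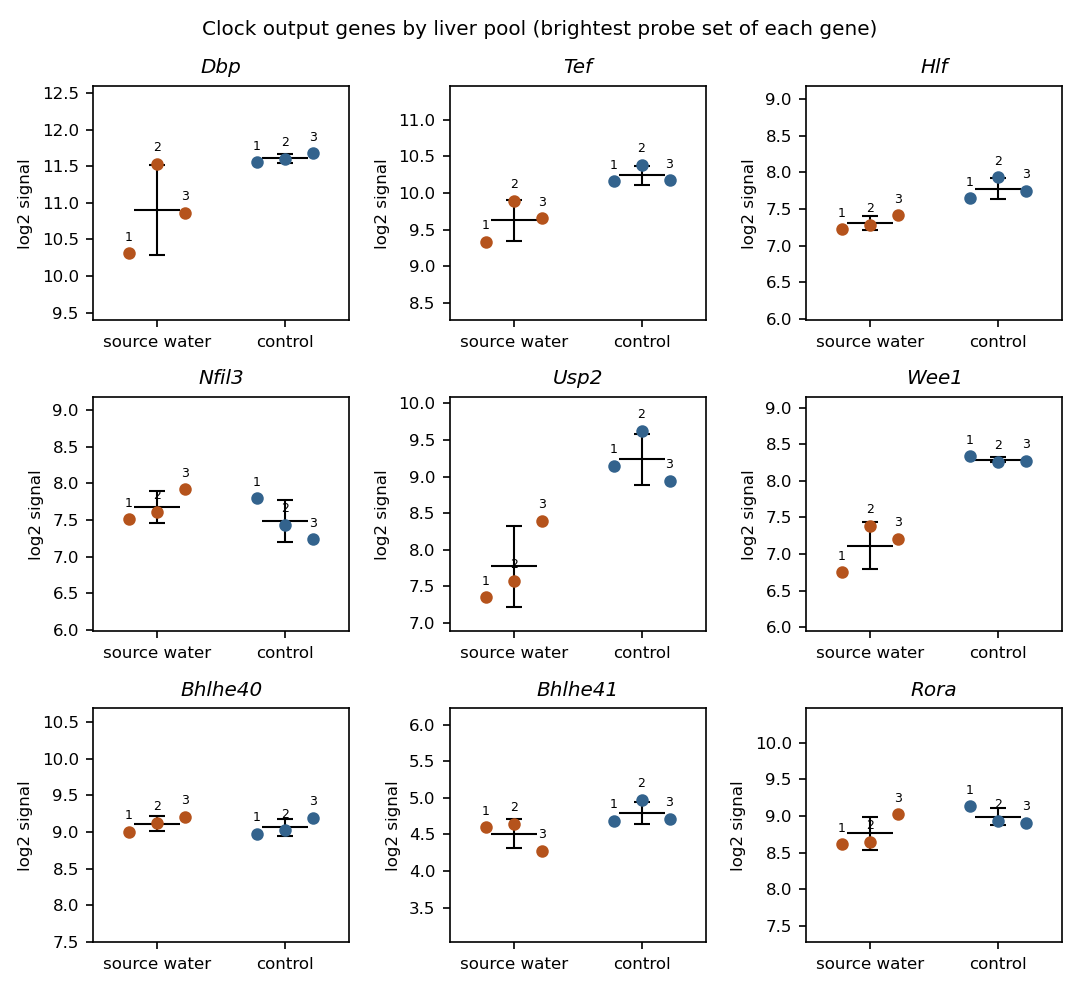
Log2 signal (y axis, every panel spanning the same number of log2 units) of the brightest probe set of each of the 9 genes in the source water and control pools, with the pool number above each point. Horizontal bars are means and error bars the SD over 3 pools. Usp2 and Wee1 show the widest gaps between groups, and for Dbp source water pool 2 lies just under the control pools.

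Across all 17 probe sets, 15 were lower and 2 higher in source water, with a median log2 difference of -0.33 against -0.01 for all probe sets. With the groups not overlapping, 8 of the 17 were lower and 0 higher, where 5.14% of all probe sets were lower and 5.52% higher. An unadjusted limma p under 0.05 with a difference of at least 1.5-fold was reached by 6 of the 17, all lower, where the share was 0.592% lower and 0.897% higher over all probe sets. In limma, 0 of the 17 passed an adjusted p of 0.05, a threshold passed by 0.0398% of all probe sets, and 7, all lower, had an unadjusted p under 0.05. By that unadjusted rule 2.59% of all probe sets were lower and 3.43% higher. The smallest limma adjusted p was 0.0637, for Wee1, which gave 0.045 with limma-trend. Since the members were chosen on this contrast, nothing is read from these shares. In the authors' deposited table, 6 of the 17 had a p-value under 0.05 and a fold change of -1.5 or beyond, as did 0.557% of all probe sets. That table gave signed fold changes of -2.75 and -3.31 for Usp2, and of -2.26 and -1.25 for Wee1.

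The 12 member probe sets with a mean log2 signal of at least 6 had a median difference of -0.60, while the 5 dimmer ones had a median of -0.15. All 5 dim probe sets were lower in source water, by 0.01 to 0.33 on the log2 scale.

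**Figure D2:**
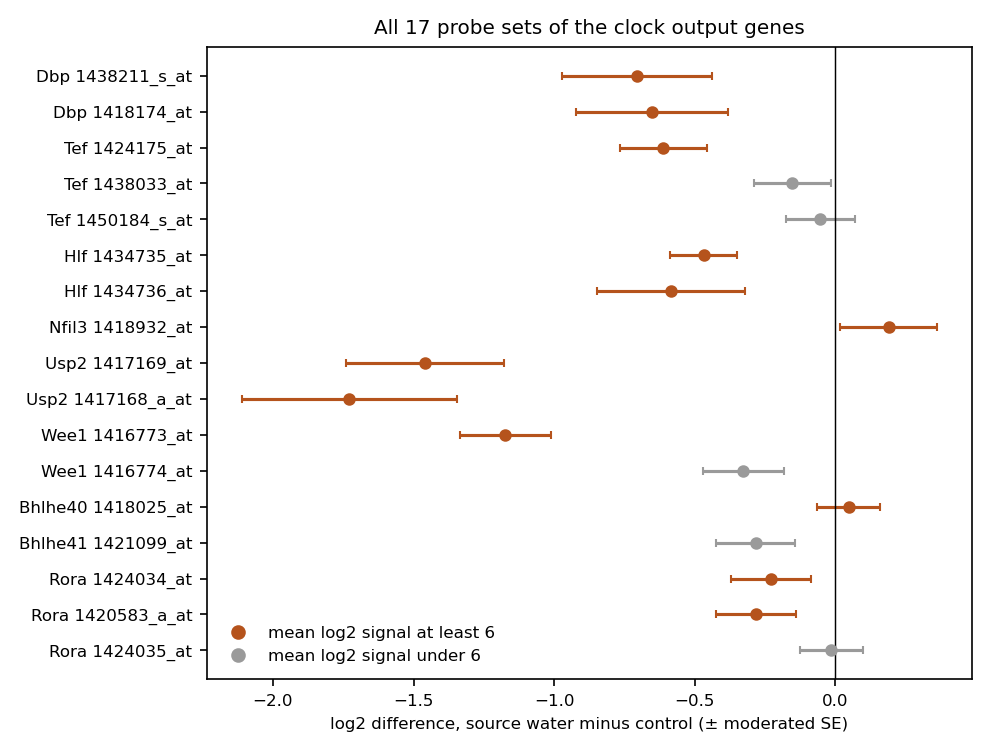
Log2 difference between source water and control (x axis) for each of the 17 probe sets (y axis), with error bars of the moderated SE. Probe sets with a mean log2 signal under 6 are grey and lie between -0.33 and -0.01, and both Usp2 probe sets lie farthest to the left, at -1.46 and -1.73.

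The pools within a group also differed. Source water pool 1 was the lowest of the 3 source water pools for 8 of the 9 genes, all but Bhlhe41, whereas it was the lowest for 29.8% of all 12393 genes. These pool values make up the contrast on which the members were chosen, so the count is a description and nothing is read from it. Above it the order split. Pool 2 was the highest for Dbp, Tef, Wee1 and Bhlhe41, and pool 3 for Hlf, Nfil3, Usp2, Bhlhe40 and Rora. The spread over the source water pools was 1.22 for Dbp and 1.05 for Usp2 on the log2 scale, against 0.12 and 0.68 over the control pools. The SD of Usp2 within groups was larger than for 97.4% of probe sets, that of Dbp larger than for 96.8%, and that of Wee1 larger than for 74.7%. Among the control pools, the lowest was pool 1 for 5 genes, pool 2 for 1 and pool 3 for 3. The highest was pool 1 for 3 genes, pool 2 for 4 and pool 3 for 2.

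With group means removed, pairs of members could be set side by side over the 6 arrays, as a description of arrays that all genes share. Deviations of Wee1 and Dbp correlated at 0.93, those of Tef and Dbp at 0.90 and those of Wee1 and Tef at 0.86. The control pools spanned only 0.12 for Dbp and 0.07 for Wee1, against 1.22 and 0.63 over the source water pools. These values therefore rest mostly on the 3 source water pools. Rora and Nfil3 correlated at 0.89, Usp2 and Hlf at 0.83, and Rora and Usp2 at 0.71. All these values are of the brightest probe sets. By the second Hlf probe set control pool 2 was the lowest control pool, at 5.81. By the brightest it was the highest, at 7.93, so the value of Usp2 and Hlf is given for the brightest only. Dbp and Usp2 correlated at 0.11, and Dbp and Rora at -0.03. Bhlhe41 ran opposite to Rora, at -0.82, and to Nfil3, at -0.57. Over all 36 pairs of members the correlations ran from -0.82 to 0.93, with a median of 0.25 and 7 below 0. No test was made on these values, since 6 arrays with both group means removed leave few independent values.

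**Figure D3:**
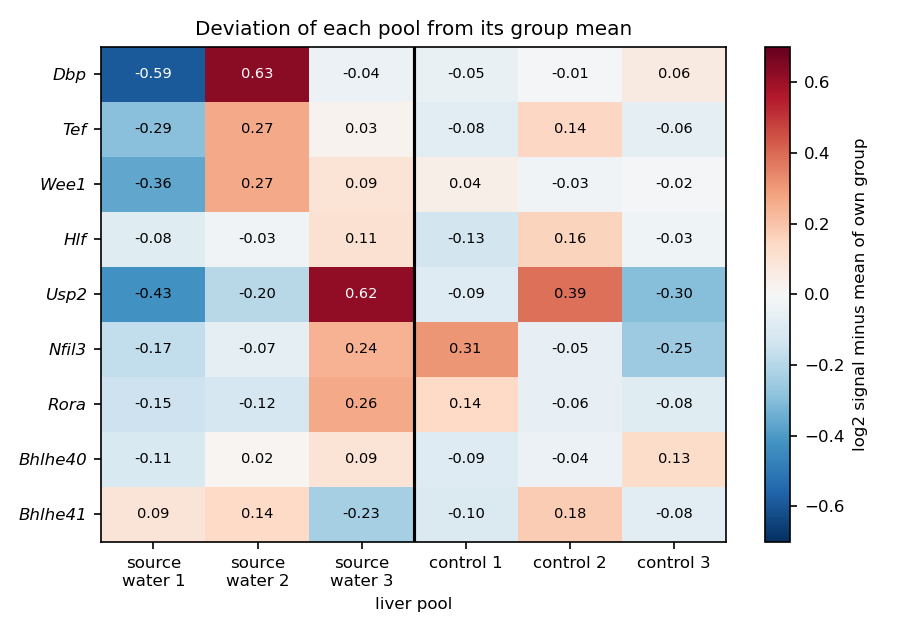
Log2 signal of each pool minus the mean of its own group (colour and printed value) for the 9 genes (rows) in the source water and control pools (columns). Source water pool 2 is above its group mean for Dbp, Tef, Wee1, Bhlhe40 and Bhlhe41. Source water pool 3 is above it for Tef, Wee1, Hlf, Usp2, Nfil3, Rora and Bhlhe40.

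Genes whose pattern was most like that of Dbp over the 6 arrays were looked for among 584 other genes brighter than the median probe set and with a range of at least 1. They were Arid5b (Pearson r = 0.97), the methyltransferase gene Inmt (0.97), the homeobox gene Hhex (0.95), Cyp2g1 (0.95) and the cytokine signalling inhibitor gene Cish (0.95). Inmt had log2 signals of 11.70, 12.88 and 11.99 in source water, against 12.62, 12.89 and 13.04 in control, so it too was low in pools 1 and 3 and near control in pool 2. With group means removed, the correlations of these 5 genes with Dbp were 0.90 to 0.95. The genes most like Nfil3 were Col4a1 (0.88), Tmem170 (0.88), Slc39a4 (0.87), Net1 (0.86) and Spc25 (0.84). Slc39a4, a zinc transporter gene, had 8.48, 8.93 and 9.15 in source water, against 8.55, 8.28 and 7.69 in control. Such values are the highest of many over only 6 arrays and are given as a description.

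The genes of the core loop differed in both directions. Of 17 listed, 13 were measured, 5 higher and 8 lower in source water. In limma, 0 of the 13 passed the adjusted threshold over all probe sets, passed by 0.0323% of all genes. An unadjusted p under 0.05 was reached by 5 lower and 3 higher, where 2.60% of all genes were lower and 4.16% higher by that rule. This list and the gene lists below were chosen with earlier results of these data known. Nothing is therefore read from their counts set beside the shares of all genes. Per2, an inhibitor of the loop, had 5.46, 5.42 and 5.50 in source water, against 6.37, 6.46 and 6.93 in control, with all source water pools below control. Per3 had 5.26, 6.51 and 6.06 in source water, against 6.73, 7.40 and 7.35 in control, in the same order of source water pools as Dbp, Tef and Wee1.

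Nr1d2, which encodes the repressor REV-ERB-beta, had a log2 difference of -0.48 ± 0.14 (SE), with groups apart. Its paralogue Nr1d1, for REV-ERB-alpha, differed in the other direction. It had 6.49, 6.46 and 6.44 in source water, against 5.61, 5.29 and 5.84 in control, a difference of 0.88 ± 0.15 (SE). Arntl, the gene of BMAL1, had 5.78, 5.25 and 6.13 in source water, against 4.92, 4.66 and 4.63 in control, and Clock differed by 0.70 ± 0.19 (SE). Both activator genes were above control in every source water pool, while the PAR bZIP genes were below. The Arntl probe set was dim, with a mean log2 signal of 5.72 in source water and 4.73 in control, near the floor. The dimmer probe sets of Per2, Per3 and Nr1d2 differed by -0.18 to 0.09.

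**Figure D4:**
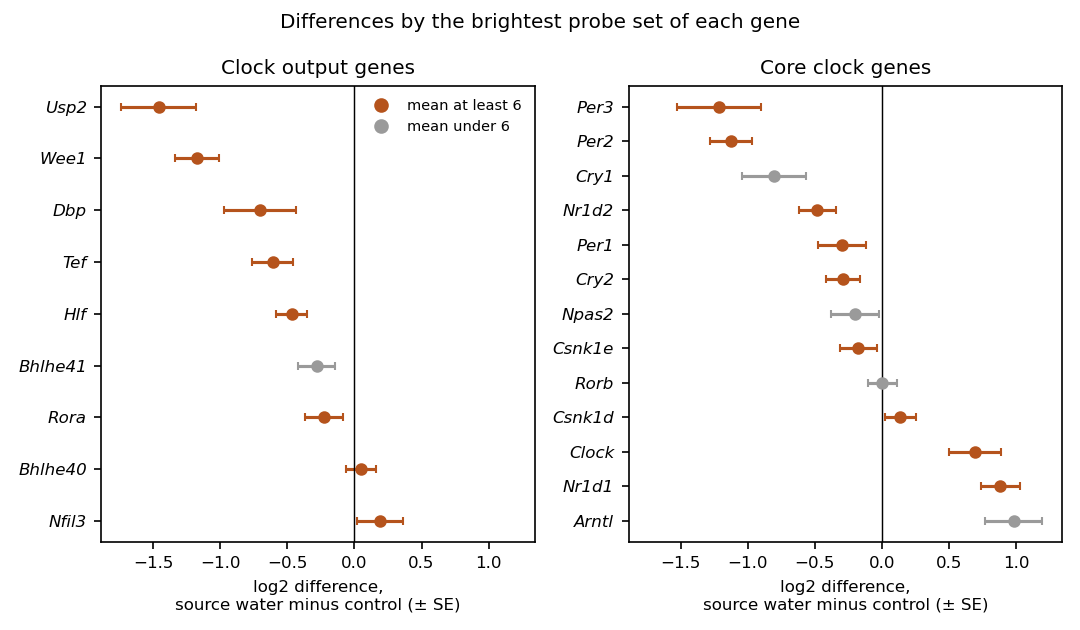
Log2 difference between source water and control (x axis, with moderated SE) by the brightest probe set of each gene (y axis), for the 9 clock output genes on the left and 13 core clock genes on the right. Usp2 lies farthest to the left, at -1.46, followed by Per3 at -1.22, Wee1 at -1.17 and Per2 at -1.12. Arntl, Nr1d1 and Clock lie to the right. Genes with a mean log2 signal under 6, Arntl among them, are grey.

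Genes tied to D-boxes or to the PAR bZIP factors in mouse liver or other tissues did not share a direction. Of 17 listed, 14 were measured, 8 higher and 6 lower, with a median log2 difference of 0.04 against 0.00 for all genes. One, the cytochrome P450 gene Cyp2b10, rose past the adjusted threshold, which 0.0323% of all genes passed in either direction. Cyp2b10 had log2 signals of 13.3, 13.5 and 13.2 in source water, against 12.1, 11.9 and 12.0 in control. Its difference was 1.36 ± 0.12 (SE, limma adjusted p = 0.0124), by a probe set that may also match related Cyp2b transcripts. The limma adjusted p was 0.0279 to 0.114 with single arrays left out, and the call was lost without control pool 1, control pool 3 or source water pool 1. At an unadjusted p under 0.05, 3 were higher and 5 lower, where 4.16% of all genes were higher and 2.6% lower. Upp2, a uridine phosphorylase gene, had 10.66, 10.62 and 11.15 in source water, against 12.13, 12.15 and 12.02 in control. Like Usp2, it was highest in pool 3 among the source water pools. Cyp7a1, which encodes the first enzyme of the classical bile acid pathway, differed by -1.41 ± 0.22 (SE), the pyridoxal kinase gene Pdxk by -0.60 ± 0.14 and Nr1i3, the gene of the receptor CAR, by -0.45 ± 0.15. By their brightest probe sets, all 4 of these lower genes had groups apart, as did 623 of all 12393 genes in that direction. Another Pdxk probe set had overlapping groups, at -0.32, while the remaining Pdxk probe set had groups apart, at -0.46. The second probe sets of Cyp7a1 and Upp2 also had groups apart, at -1.57 and -1.70.

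Of 11 listed genes with ROR elements or control by REV-ERB, 9 were measured, 6 higher and 3 lower, with a median log2 difference of 0.70. At an unadjusted p under 0.05, 5 were higher and 1 lower, where 4.16% of all genes were higher and 2.6% lower. The elongase gene Elovl3 rose past the adjusted threshold (2.06 ± 0.23, SE, limma adjusted p = 0.0448), passed by 0.0323% of all genes. With single arrays left out its limma adjusted p was 0.0338 to 0.196, and the call held only without source water pool 2. Insig2, which restrains sterol synthesis, had 12.04, 11.66 and 12.03 in source water, against 10.47, 9.85 and 10.95 in control, a difference of 1.48 ± 0.26 (SE). Cry1, a loop inhibitor with a ROR element, differed by -0.80 ± 0.24 (SE), with overlapping groups. Its probe set was dim, with a mean log2 signal of 5.42 in source water and 6.22 in control. Arntl, Clock, Cry1 and Npas2 were on both this list and the core clock list, so the counts of these lists are not independent.

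Genes of mitotic entry, the step that WEE1 restrains, did not separate the groups. Of 10 listed, 9 were measured, 5 higher and 4 lower. In limma 0 had an adjusted or an unadjusted p under 0.05, with a lowest adjusted p of 0.976. Over all genes 0.0323% passed the adjusted threshold, and 4.16% were higher and 2.6% lower at an unadjusted p under 0.05. Groups overlapped for all 9, as for 10963 of all 12393 genes. By their brightest probe sets, all but Pkmyt1 had a mean log2 signal under 6 over the 6 arrays. Such dim signals limit what these genes can show. The checkpoint kinase gene Chek1 differed by -0.12 ± 0.19 (SE), Plk1 by 0.11 ± 0.13 and the cyclin genes Ccna2 and Ccnb2 by 0.14 ± 0.17 and 0.51 ± 0.31. Ccnb2 was high in source water pool 3 alone, at 5.22, against 3.85 to 3.91 in control, and its other source water pools were at 3.86 and 4.09.

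Glucocorticoid and fasting genes, several of which also follow the daily cycle, had 12 of 13 measured, 6 higher and 6 lower. In limma 0 passed the adjusted threshold, passed by 0.0323% of all genes. At an unadjusted p under 0.05, 2 were higher and 1 lower, where 4.16% of all genes were higher and 2.6% lower. Groups overlapped for all 12, as for 10963 of all 12393 genes. Sgk1 differed by 0.81 ± 0.27 (SE), Cdkn1a by 0.99 ± 0.39, Angptl4 by 0.22 ± 0.13 and Fkbp5, a target of the glucocorticoid receptor, by -0.96 ± 0.41. Fkbp5 had 8.73, 8.33 and 9.93 in source water, against 10.52, 9.86 and 9.50 in control, and was again highest in source water pool 3.

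Markers of other liver cell types were set beside these results. The mean log2 level of 8 stellate cell markers was 7.01 to 7.08 in source water, against 6.71 to 6.90 in control, with 4 of 8 higher and the groups apart. The collagen gene Col3a1 set this gap, with a log2 difference of 1.33. Groups were also apart for the collagen gene Col1a2, at 0.50, and in the other direction for Lrat, near the floor, at -0.27. Without Col3a1, a step added after its values were seen, the other 7 gave 6.83 to 6.93 in source water, against 6.74 to 6.85 in control, and the groups overlapped. For 9 Kupffer cell and macrophage markers it was 9.12 to 9.60 in source water, against 8.90 to 9.73 in control, with 7 of 9 higher. For 8 endothelial markers it was 7.21 to 7.55 in source water, against 6.89 to 7.53 in control, with 4 of 8 higher. Lists of bile duct, lymphocyte, neutrophil, erythroid, adipocyte and acinar markers overlapped between groups. In limma 0 markers of any list passed the adjusted threshold, passed by 0.0323% of all genes. The part of other cell types in the differences of the clock output genes was not tested.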

How the data were processed

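RNA of 6 liver pools was hybridised to 1-colour 3' expression arrays. The authors deposited log2 signals, 1 per probe set and array, made with RMA and Partek, per the submitters' processing notes, their settings being unstated. The authors' deposited table gives a p-value, a ratio, a signed fold change and log2 group means. These means matched those computed here to within 7.7e-05. The test behind the deposited p-values is not stated.

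Probe sets for controls (64 of 22690) were dropped. Single gene symbols of the platform annotation were used, and 20351 probe sets matched a GRCm38.p6 gene table by Entrez identifier, with 0 symbols changed. A gene is represented by its probe set with the highest mean. Groups were compared with limma 3.58.1 in R 4.3.3 (lmFit, eBayes, no covariate, Benjamini-Hochberg adjustment over 22626 probe sets), tested on simulated data. The members, lists and tests were chosen with earlier results of these data known. Named genes were all members and, per list, those past the adjusted threshold plus the 4 of smallest p (6 for core clock genes), besides 5 genes most like Dbp and 5 most like Nfil3. Alternatives covered a replicate block, median centring, a second quantile normalization, limma-trend, unmoderated statistics, filters on dim probe sets, averaging the probe sets per gene, and leaving out single arrays.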

Additional observations from a re-analysis of the deposited data

How the results depend on the processing

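The signs of the 9 members' differences were the same under each of the alternatives run that kept them (filters on dim probe sets dropped Bhlhe41), although Bhlhe40 came down to 0.000885 when 1 array was left out. The replicate block, limma-trend, the unmoderated statistic and the filters cannot change a probe set's difference, so the sign was fixed in advance there. The members were also chosen on this contrast, so nothing is read from their signs. The median over the 9 was -0.47 and became -0.28 when probe sets were averaged per gene, where Tef gave -0.27 and Wee1 -0.75, since their dim probe sets differed little. Leaving out 1 array gave medians of -0.53 to -0.39. Wee1 passed the adjusted threshold with limma-trend (adjusted p = 0.045, against 0.0508 to 0.571 under the other settings with all arrays), and the second Usp2 probe set passed without source water pool 3 (adjusted p = 0.041). No other member probe set passed under any alternative run. The count of 9 probe sets past the adjusted threshold became 35 with limma-trend, 30 with repeated quantile normalization and 0 with the unmoderated statistic, which still gave 1249 at an unadjusted p under 0.05. It was 0 without control pool 1, 14 without control pool 2, 2 without control pool 3 and 1 without source water pool 1, a range of 0 to 14, and the cause was not tested. The count past the 1.5-fold rule was 337, was 213 with the unmoderated statistic and was 345 to 465 with an array left out. Over the 8 settings with all arrays, Cyp2b10 passed in 7 (adjusted p of 0.00121 to 0.297) and Elovl3 in 4 (0.0144 to 0.496). The count of 8 core clock genes at an unadjusted p under 0.05, of 13 tested, was 6 to 8 under the alternatives. The filters on dim probe sets left 9 tested, and gave 6. A replicate block for the pool number let 45 probe sets pass, 0 of them from the members. Same-numbered pools deviated together at -0.07, 0.28 and 0.17, so the numbers were not taken to pair the samples. Signals near the floor limit what the dim probe sets can show.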
